A study of Mus musculus with 6 samples.

Results

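The negative feedback genes of the ERK pathway described here were 5 genes, Spry1 (ENSMUSG00000037211), Spry2 (ENSMUSG00000022114), Dusp4 (ENSMUSG00000031530), Dusp5 (ENSMUSG00000034765) and Dusp6 (ENSMUSG00000019960), of the 34187 genes in the count matrices. They had been named because Spry2 was higher in T cells of tumors treated with IL10/2-Trikine, so the values of T cells with that treatment chose the genes and are given as a description with no test. Single-cell 5' RNA sequencing was carried out on cells that had been isolated as CD45+ with beads from subcutaneous tumors of the pancreatic cancer line 6694c2vTRP1 in male and female C57BL/6 mice. The PBS group carried the same tumors and received the buffer. The mono-IL10 group received 26 µg per mouse of a monomeric form of human IL-10. The IL10/2-Trikine group received 30.6 µg per mouse of the same cytokine extended with a part that also recruits the IL-2 receptor beta chain. Injections were intraperitoneal, 2 in number and started on day 8 after inoculation, and tumors were taken on day 14. All mice carried a tumor of 1 cell line, no group without a tumor was included, and each mouse was marked with its own hashtag before the 5 mice of a group were pooled.

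In all, 3 libraries and 15 mice were analysed, 1 library per treatment, so treatment and library cannot be told apart in these data, and every p-value below measures only the spread between mice within libraries. The libraries held 30528 to 55504 barcodes and 364814102 to 515236552 gene UMIs (unique molecular identifiers, counts of captured RNA molecules), and 0 annotated barcodes were shared between any pair of them. Of the T and NK cells that the authors had annotated, 348 of the PBS library, 635 of the mono-IL10 library and 400 of the IL10/2-Trikine library could be given to a mouse by hashtag. The beads had selected CD45+ cells, but cells with the markers of tumor epithelium formed the largest named class in every library, with 7631 to 22331 barcodes, and they are described below beside macrophages. The class called macrophages throughout was named from markers as macrophages or monocytes. The comparisons between treatments share mice, so they are not independent of each other.

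Signals from growth factor, antigen and cytokine receptors activate the kinase ERK through RAS, RAF and MEK. Active ERK switches on genes whose products turn the pathway down again. Sprouty proteins (Spry1, Spry2) act upstream, between the receptor and RAF, where they restrain RAS activation. The dual-specificity phosphatases act on the kinase itself: Dusp6 removes the activating phosphates from ERK in the cytoplasm, Dusp5 does so in the nucleus, and Dusp4 is a nuclear enzyme that also acts on the related kinases JNK and p38. In lymphocytes the transcripts of these genes are commonly read as traces of recent ERK activity, and Dusp5 is also known as a gene induced by IL-2.

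The upstream DNA of Spry2 and Dusp5 is shown because only these members passed the filter on low counts in T and NK cells. They also moved in opposite directions in the tumor cells described below. The sequences run from 250 bases before to 50 bases after the start of the gene in RefSeq on GRCm38.p6. Windows were at hand here for 4 of the 5 members (Spry1, Spry2, Dusp5 and Dusp6), and none was obtained for Dusp4. Capitals in Dusp5 mark 2 adjacent CArG boxes, the sequence bound by serum response factor.
Spry2, chr14:105896770-105897069, minus strand: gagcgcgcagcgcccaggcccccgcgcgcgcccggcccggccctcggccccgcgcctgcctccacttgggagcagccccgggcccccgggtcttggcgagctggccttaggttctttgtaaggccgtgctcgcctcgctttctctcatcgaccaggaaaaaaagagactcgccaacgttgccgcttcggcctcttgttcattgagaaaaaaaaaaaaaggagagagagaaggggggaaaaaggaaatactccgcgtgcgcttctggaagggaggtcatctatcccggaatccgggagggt
Dusp5, chr19:53528895-53529194, plus strand: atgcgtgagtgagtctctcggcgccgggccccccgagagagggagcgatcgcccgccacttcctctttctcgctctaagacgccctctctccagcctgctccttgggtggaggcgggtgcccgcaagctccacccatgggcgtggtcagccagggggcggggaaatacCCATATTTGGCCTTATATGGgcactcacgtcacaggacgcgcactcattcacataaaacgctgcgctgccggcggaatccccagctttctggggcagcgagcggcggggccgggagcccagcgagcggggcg
With the base before the start as -1, the CArG boxes of Dusp5 lay at -82 to -73 and at -72 to -63. A CArG box was found in 1.63% of 32851 promoters of the same length, and in none of the windows of Spry1, Spry2 and Dusp6. Dusp5 also held a CRE half-site (TGACG) at -55 to -51 on the minus strand, which 20.8% of promoters hold, and a GC box (GGGCGG) at -96 to -91, which 35.7% hold. The STAT motif TTCNNNGAA (8.30% of promoters), the AP-1 motif TGANTCA (7.81%), the ETS motif CCGGAAGT (3.89%) and the full CRE TGACGTCA (1.79%) were searched on both strands and were not in the windows of Spry1, Spry2, Dusp5 or Dusp6. Both printed windows held 28 CpG sites, against a median of 7 over all promoters, with 62.7% G and C in Spry2 and 66.7% in Dusp5 against a median of 52.7%.

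Within the annotated lymphocytes the members were highest in different clusters, which the heatmap of pooled levels by cluster shows. Levels are given in CPM, the UMIs of the gene per 1000000 UMIs of the same cells, pooled over mice. The authors defined the clusters on variable genes of the same data, so differences between clusters carry no test. Pooled over the treatments, and among clusters of at least 29 cells, Spry2 was highest in the NK clusters and in gdT/NKT. It stood at 113 CPM in the NK cluster (465 cells), 118 CPM in Cycling_NK (42 cells) and 88.7 CPM in gdT/NKT (142 cells). It stood at 57.1 CPM in Cycling_T (236 cells) and at 14.6 CPM in act_CD4T (125 cells). The place of Cycling_T in this order changed with the treatment. In IL10/2-Trikine it held 154 CPM, beside 131 CPM in NK, 140 CPM in Cycling_NK and 128 CPM in gdT/NKT, while in PBS and mono-IL10 it held 31.2 and 22.0 CPM, below NK at 107 and 106 CPM and gdT/NKT at 83.1 and 80.1 CPM. The order in IL10/2-Trikine lies within the spread, with 153 ± 73.5 CPM (SD, n = 5) per mouse in Cycling_T and 128 ± 28.4 CPM (SD, n = 5) in NK, and it includes the values that chose the gene. In Treg cells, which had 113 cells, 1 UMI was counted (3.29 CPM), and none was counted in the 29 Cycling_Treg cells. Over mice with at least 10 cells of the cluster, Spry2 was 117 ± 29.4 CPM (SD, n = 14) in NK and 105 ± 86.7 CPM (SD, n = 5) in gdT/NKT, so the order of this pair lies within the spread between mice.

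Dusp4 ran the other way. Pooled over the treatments it was highest in act_CD4T at 100 CPM and in Treg at 98.6 CPM, followed by Cycling_Treg at 69.7 CPM, and it was low in gdT/NKT at 4.44 CPM and in NK at 5.67 CPM. The order of the first 3 changed with the treatment. Treg stood at 117 CPM in PBS, 106 CPM in mono-IL10 and 38.1 CPM in IL10/2-Trikine, the last on 2 UMIs. In the same order act_CD4T stood at 63.0, 117 and 80.6 CPM, and Cycling_Treg at 44.0, 86.4 and 98.9 CPM on 4, 6 and 4 UMIs. Per mouse the level was 109 ± 63.4 CPM (SD, n = 5) in act_CD4T and 119 ± 53.5 CPM (SD, n = 5) in Treg, which do not differ beyond their spread. No IL10/2-Trikine mouse had 10 cells of either cluster, so these are mice of PBS and mono-IL10 only. No Dusp4 UMI was found in Cycling_NK. Across the 20 sums of a cluster in 1 treatment with at least 20 cells, the correlation of log2(CPM + 10) between Spry2 and Dusp4 was -0.799, given as a description over sums that share libraries.

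Dusp5 was counted in every cluster. Pooled over the treatments it ranged from 309 CPM in Cycling_T through 340 CPM in act_CD4T, 410 CPM in naive_CD8T, 422 CPM in gdT/NKT and 459 CPM in NK to 581 CPM in naive_CD4T and 664 CPM in Treg, among clusters of more than 40 cells other than Cycling_NK, which had 366 CPM. The order was not the same in each treatment. In PBS the naive clusters stood highest, naive_CD4T at 732 CPM (19 cells) and naive_CD8T at 615 CPM (31 cells), followed by gdT/NKT at 546 CPM and Treg at 533 CPM. In IL10/2-Trikine, which had 2 naive cells, act_CD4T was at 274 CPM, beside 295 CPM in Cycling_T and 686 CPM in Treg. Per mouse with at least 10 cells of the cluster, over all treatments, it was 722 ± 201 CPM (SD, n = 5) in Treg and 316 ± 117 CPM (SD, n = 11) in Cycling_T. The Treg mice were 2 of PBS and 3 of mono-IL10, with none of IL10/2-Trikine. Among clusters of at least 29 cells, Spry1 and Dusp6 were highest in act_CD4T, with 36.4 CPM and 40.1 CPM. Spry1 elsewhere rested on 3 UMIs or fewer per cluster, and Dusp6 lay between 4.52 and 21.1 CPM in the other clusters of at least 29 cells. The rare clusters ISG+CD8T, Th17/ILCs and naive_T held 12, 11 and 6 cells, too few for a level to be given here.

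**Figure D1:**
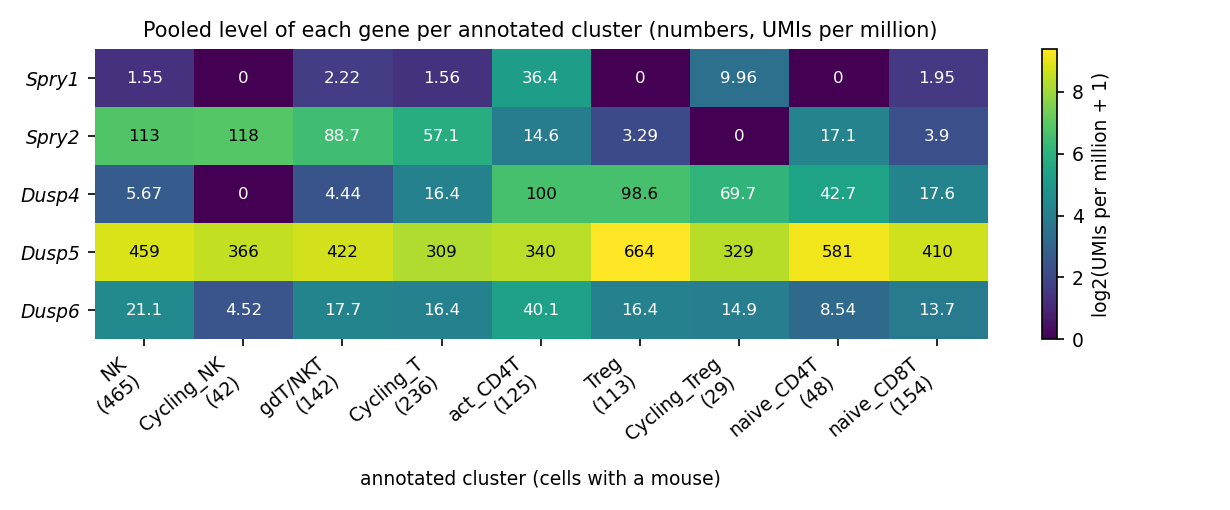
Heatmap of the pooled level of the 5 genes (rows) in the annotated T and NK cell clusters (columns, with the number of cells), in CPM printed in each cell and coloured as log2(CPM + 1). Spry2 stood at 113 in NK and at 3.29 in Treg, Dusp4 at 5.67 in NK and at 98.6 in Treg, and Dusp5 was at 309 or more in every cluster shown.

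The genes whose levels followed each member most closely over those 20 sums, among 5922 genes with a mean of at least 20 CPM, were as follows. For Spry2 they were the NK receptor genes Klre1 (Pearson's r = 0.925) and Klrb1c (0.905), the signalling adaptor Fcer1g (0.915), the lipase Aoah (0.908) and Adamts14 (0.905). For Dusp4 they included Uhrf2 (0.902), Sgms1 (0.901), the T cell costimulatory receptor Tnfrsf4 (0.898) and Fam169b (0.884). For Spry1, whose mean over the sums was 6.44 CPM, they were Gpm6b (0.923), Tnfsf8 (0.897), Ostf1 (0.886), Itpr1 (0.867) and Nrp1 (0.866). Dusp6 followed the cytokine gene Csf2 (0.802) and Xpnpep1 (0.739), Abcf2 (0.716), Gpm6b (0.705) and Gabarapl1 (0.702). For Dusp5 the likeness was lower, with Ubl3 (0.793), Abi1 (0.791), Ppp1r15a (0.784), Camk2d (0.781) and Cyth1 (0.777) at the head. These are correlations of sums that share libraries and depth, so they describe these data and carry no p-value.

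Spry2 in T cells was the value on which the genes had been chosen. T cells were all annotated clusters other than NK and Cycling_NK, with UMIs summed per mouse over 17 to 160 cells. In PBS mice Spry2 stood at 12.3, 43.4, 28.8, 36.5 and 28.4 CPM, on 27 UMIs in all. In mono-IL10 mice it stood at 22.7, 22.1, 28.1, 9.79 and 42.7 CPM, on 45 UMIs. In IL10/2-Trikine mice it stood at 126, 117, 156, 64.1 and 82.7 CPM, on 62 UMIs. All 5 mice given IL10/2-Trikine exceeded every mouse given PBS or mono-IL10, and the latter groups overlapped, as the plot of Spry2 per mouse shows. The fitted log2 difference was 1.85 (SE 0.38) from PBS and 2.24 (SE 0.34) from mono-IL10, given with no test. In NK cells of the same treatment the mice ranged from 91.9 to 173 CPM.

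**Figure D2:**
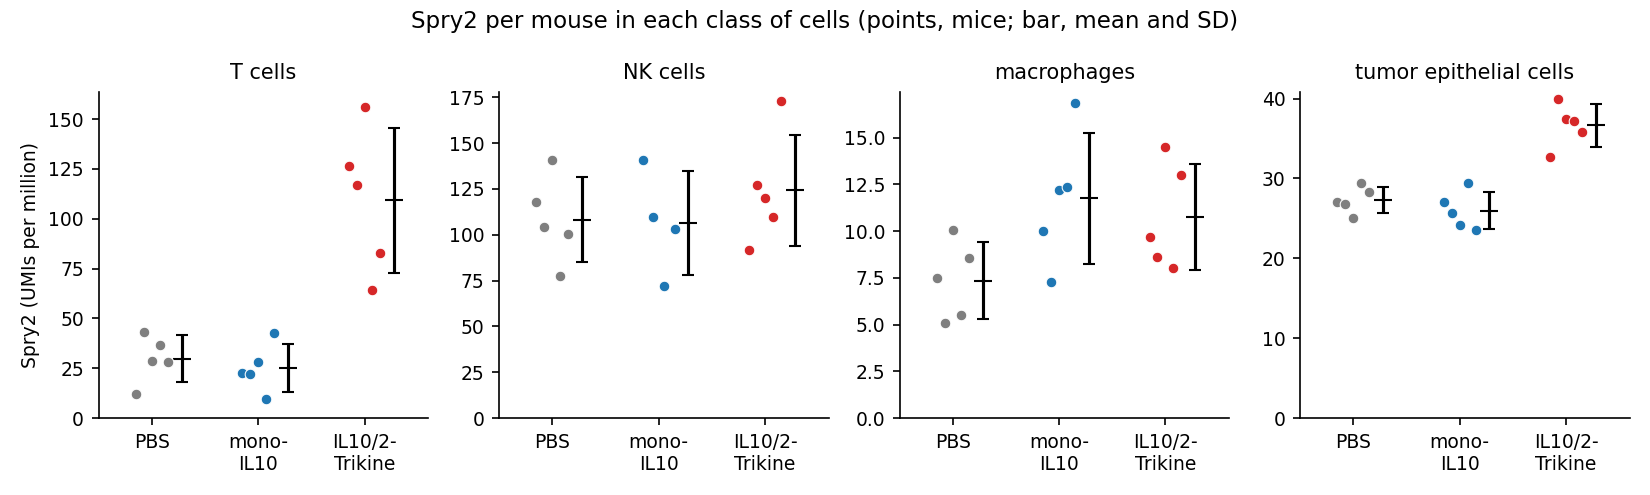
Spry2 in CPM (vertical axis, from 0) for each mouse of the PBS, mono-IL10 and IL10/2-Trikine groups in T cells, NK cells, macrophages and tumor epithelial cells, with the mean and SD as a bar. IL10/2-Trikine mice lay at 64.1 to 156 in T cells, above all others, and at 32.7 to 39.99 in tumor epithelial cells, again above all others, while the groups overlapped in NK cells and macrophages.

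Of the 62 Spry2 UMIs in IL10/2-Trikine T cells, 50 were in the Cycling_T cluster, where the level was 154 CPM (94 cells), against 31.2 CPM in PBS (7 UMIs, 43 cells) and 22.0 CPM in mono-IL10 (16 UMIs, 99 cells). That cluster was not uniform. Cells were split by UMIs of the NK marker genes Ncr1, Klrb1c, Klre1, Tyrobp and Fcer1g, the last pair also carried by myeloid cells. These were set against the T cell marker genes Cd3e, Cd3d, Cd3g, Trac and Trbc2. Cells with more NK than T cell marker UMIs made up 59 of the 94 Cycling_T cells in IL10/2-Trikine, 12 of 43 in PBS and 14 of 99 in mono-IL10. These cells held 40 of the Spry2 UMIs in IL10/2-Trikine, a level of 191 CPM with an exact 95% Poisson interval of 137 to 260, against 63.6 CPM (23.3 to 138) in PBS and 87.1 CPM (45.0 to 152) in mono-IL10. The intervals here and below cover counting error only.

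In the other Cycling_T cells, whose T cell markers outweighed or equalled the NK markers, Spry2 was 86.1 CPM in IL10/2-Trikine (41.3 to 158, 10 UMIs in 35 cells), 7.69 CPM in PBS (0.195 to 42.9, 1 UMI in 31 cells) and 6.77 CPM in mono-IL10 (1.84 to 17.3, 4 UMIs in 85 cells). Among Cycling_T cells with no UMI of any NK marker of the split, 1 Spry2 UMI was counted in 14 IL10/2-Trikine cells, 0 in 19 PBS cells and 1 in 45 mono-IL10 cells, so a difference was not detectable there at this depth. The NK receptors Ncr1, Klrb1c and Klre1, which unlike Tyrobp and Fcer1g are not myeloid genes, summed to 215 CPM in the other Cycling_T cells of IL10/2-Trikine, 46.2 CPM in those of PBS and 22.0 CPM in those of mono-IL10. Their sum in annotated NK cells was 736 to 1060 CPM.

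**Figure D3:**
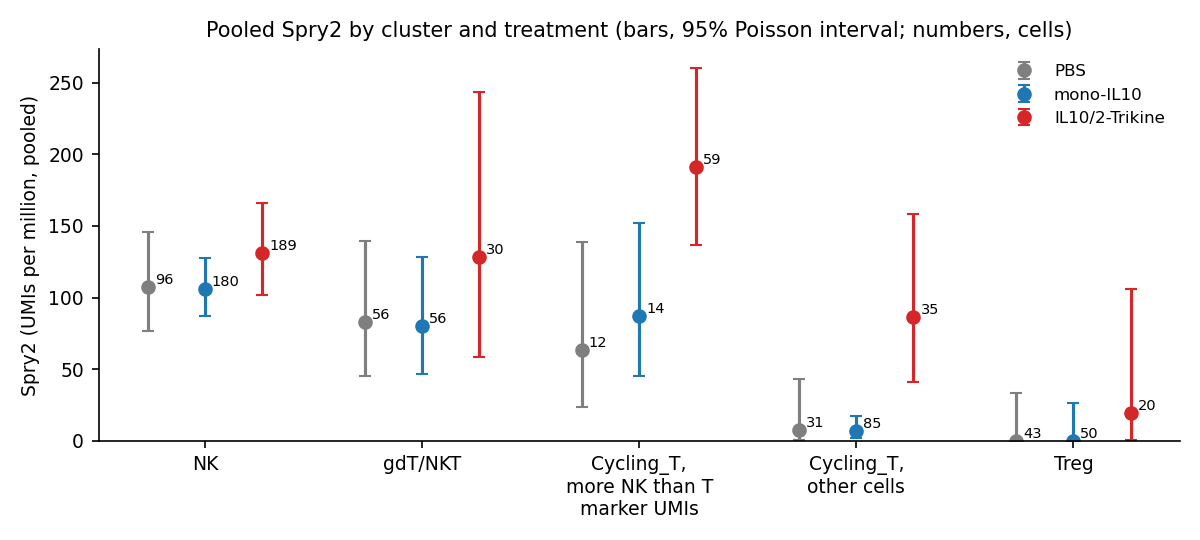
Pooled Spry2 in CPM (vertical axis) by treatment in the NK, gdT/NKT and Treg clusters and in Cycling_T cells split by whether they held more NK than T cell marker UMIs, with exact 95% Poisson intervals as bars and the number of cells beside each point. Cycling_T cells with more NK marker UMIs stood at 191 in IL10/2-Trikine, and the other Cycling_T cells at 86.1 in IL10/2-Trikine against 7.69 in PBS and 6.77 in mono-IL10.

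Without the Cycling_T cells that held more NK than T cell marker UMIs, Spry2 in the remaining T cells stood at 13.1, 90.9, 64.3, 42.3 and 70.4 CPM in IL10/2-Trikine mice, at 13.3 to 41.9 CPM in PBS mice and at 7.10 to 38.6 CPM in mono-IL10 mice. In this set 4 of the 5 IL10/2-Trikine mice exceeded all mice of the other groups. Mouse 1 lay below all PBS mice, within the range of mono-IL10. The 5 mice held 22 Spry2 UMIs in all, and the values of mice 1 and 4 were 1 UMI each. Mouse 4 had 10 cells with 23630 UMIs of all genes, and its 42.3 CPM stood beside a PBS maximum of 41.9 CPM. The places of mice 1 and 4 relative to the PBS mice are therefore not resolved by these counts. The fitted log2 differences became 1.21 against PBS and 1.75 against mono-IL10. Without the cycling T clusters, IL10/2-Trikine mice 3 and 4 had 7 and 6 cells and were dropped, and the remaining 3 mice stood at 20.1, 104 and 66.6 CPM, which overlapped the 17.1 to 58.8 CPM of PBS. The log2 differences were 0.93 from PBS and 1.38 from mono-IL10. Averaged with equal weight over the 4 T clusters with cells enough in all groups (Cycling_T, Treg, act_CD4T and gdT/NKT), Spry2 was 79.3 CPM in IL10/2-Trikine, 28.6 CPM in PBS and 30.4 CPM in mono-IL10. The IL10/2-Trikine mean was carried by Cycling_T at 154 CPM (50 UMIs) and gdT/NKT at 128 CPM (9 UMIs). Treg at 19.1 CPM and act_CD4T at 16.1 CPM rested on 1 UMI each. In the order Cycling_T, gdT/NKT, Treg and act_CD4T, PBS stood at 31.2, 83.1, 0 and 0 CPM. In that order mono-IL10 stood at 22.0, 80.1, 0 and 19.4 CPM.

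The makeup of the summed T cells moved with the treatment in the same direction as Spry2. The full list of 7 NK marker genes added Klra8 and Eomes to those of the split, and all were detected in each group. They summed to 1918 to 2945 CPM per mouse in IL10/2-Trikine, 1026 to 1644 CPM in PBS and 658 to 1341 CPM in mono-IL10. The full list of 7 T cell marker genes added Cd4 and Cd8a, and all were detected. They summed to 1598 to 2199.5 CPM in IL10/2-Trikine, 2618 to 3215 CPM in PBS and 3851 to 4338 CPM in mono-IL10. What part this makeup has in the Spry2 values was not tested beyond the sums above. The naive clusters, in which 5 of 208 cells held a Spry2 UMI, held 51 of the T cells with a mouse in PBS and 155 in mono-IL10, against 2 in IL10/2-Trikine. Leaving the naive clusters out gave log2 differences of 1.87 and 2.02.

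The share that free RNA could bring was estimated from the markers of other cells in the same sums. If all tumor epithelial marker UMIs in IL10/2-Trikine T cells were free RNA, they would bring 0.307 of the 62 Spry2 UMIs (0.495%), and macrophage markers would bring 0.268 (0.433%). The same sum over the NK markers, which T cells with NK genes and NK cells annotated as T cells also carry, came to 27.0005 UMIs (43.5%) in IL10/2-Trikine, 20.8 of 27 (77.1%) in PBS and 26.7 of 45 (59.2%) in mono-IL10. Free RNA of NK cells and NK genes of the cells themselves cannot be told apart in these sums. For Dusp6 the macrophage share was larger, from 15.5% of the UMIs of PBS T cells to 26.9% of those of IL10/2-Trikine, so its values in T cells are uncertain.

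Thinned to 1500 UMIs per cell, 13.8% of T cells in IL10/2-Trikine held a Spry2 UMI (exact 95% binomial interval 9.14 to 19.7, 25 of 181 cells), against 2.81% in PBS (1.14 to 5.71) and 2.69% in mono-IL10 (1.40 to 4.65). Without thinning these shares were 24.3%, 8.43% and 6.95%, at median depths of 2675, 2712 and 3722 UMIs per cell. Per mouse the thinned share ran from 10% to 26.3% in IL10/2-Trikine, 0 to 6.17% in PBS and 1.25% to 7.69% in mono-IL10. The binomial intervals pool the cells of all mice and leave out the spread between mice. The T cell shares belong to the values that chose Spry2, so they are a description and carry no test. In neutrophils, the named class with the lowest Spry2 level, the median depth was 2846 UMIs and the share without thinning was 0.945% (6 of 635 cells). Of these cells 19 came from IL10/2-Trikine, 0 of them with Spry2, at a median of 2094 UMIs, so the share describes mainly the other libraries. In NK cells the thinned share lay between 17.2% and 18.3% in all 3 groups. Of the 25 thinned T cells with Spry2 in IL10/2-Trikine, 13 also held a UMI of another member, as did 65 of the 156 without Spry2. The counts were 4 of 7 and 130 of 242 in PBS and 4 of 12 and 208 of 434 in mono-IL10.

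In the full T cell sums the other members did not share the pattern of Spry2. Dusp5 stood at 333, 496, 554, 486 and 454 CPM in PBS, at 313, 429, 491, 357 and 341 CPM in mono-IL10, and at 466, 302, 451, 299 and 298 CPM in IL10/2-Trikine. The groups overlapped, with fitted log2 differences of -0.36 (SE 0.17) from PBS and -0.11 (SE 0.17) from mono-IL10, given with no test. Over 25 alternatives they ran from -0.49 to -0.09 and from -0.37 to 0.13, so the sign of the latter changed. Dusp4 stood at 37.0, 12.4, 40.4, 43.8 and 37.8 CPM in PBS, at 57.5, 55.3, 49.1, 24.5 and 32.0 CPM in mono-IL10, and at 47.4, 24.3, 0, 42.7 and 33.1 CPM in IL10/2-Trikine, again with overlap. Dusp6 ranged from 0 to 42.7 CPM and Spry1 from 0 to 21.4 CPM over all mice, on at most 36 UMIs per group, and these 3 genes did not pass the filter on low counts in T cells.

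The question whether the cytokine without the IL-2 part moved these genes in T cells was tested as a contrast other than the one that had named them. It shares the PBS and mono-IL10 values that IL10/2-Trikine was set against in that choice, so the test is not independent of it. Of the 3189 genes tested for mono-IL10 against PBS with edgeR's quasi-likelihood test, 1.72% had an adjusted p (Benjamini-Hochberg) under 0.05. Of the 2 members that passed the filter, Dusp5 did not pass this threshold, in edgeR or in DESeq2, nor was it under 0.05 unadjusted in edgeR. Spry2 passed that filter only through the IL10/2-Trikine mice, so whether it was tested here depended on the values that chose it. Its fit is therefore given as a description only, with a log2 difference of -0.39 (SE 0.41) and a fold of 0.764. Dusp5 had a log2 difference of -0.24 (SE 0.15, adjusted p = 0.489). Of the 59 other genes listed for the pathway 31 were tested here and 0 passed in edgeR or in DESeq2. An unadjusted p under 0.05 was found for 12 of the 31 in edgeR (38.7%, against 15.1% of all genes tested), among them the phosphatase genes Dusp10 at -0.71 (SE 0.22, adjusted p = 0.109) and Dusp2 at -0.48 (SE 0.22, adjusted p = 0.286).

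NK cells, summed over the NK and Cycling_NK clusters, carried more Spry2 than the T cells of PBS and mono-IL10 mice, as described above. It stood at 118, 104, 141, 77.7 and 101 CPM in PBS, at 141, 110, 72.0 and 103 CPM in mono-IL10, where mouse 3 had 9 cells and was left out, and at 91.9, 127, 120, 110 and 173 CPM in IL10/2-Trikine. The groups overlapped. Of the 2355 genes tested, 4.42% passed for IL10/2-Trikine against PBS, 2.38% for IL10/2-Trikine against mono-IL10 and 0.297% for mono-IL10 against PBS, and neither tested member was among them in any comparison, in edgeR, in DESeq2 or at an unadjusted p under 0.05.

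For IL10/2-Trikine against PBS the fold of Spry2 in NK cells was 1.24 with a 95% interval of 0.847 to 1.83 (adjusted p = 0.619, edgeR), and against mono-IL10 it was 1.17 (0.849 to 1.60, adjusted p = 0.705). Over 20 alternatives the log2 differences ran from -0.14 to 0.43 and from -0.16 to 0.42, so the sign of each changed. For mono-IL10 against PBS the fitted fold was 1.07 (0.735 to 1.55, adjusted p = 0.927, edgeR). The mean CPM, without the scaling of the fit, ran the other way, 106.5 in mono-IL10 and 108.3 in PBS. The folds that described T cells were 3.61 and 4.72. Whether the response differed between T and NK cells was not tested, since the T cell value had chosen the gene.

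Dusp5 in NK cells stood at 531, 356, 691, 389 and 342 CPM in PBS, at 539, 516, 426 and 418 CPM in mono-IL10, and at 460, 370, 360, 340 and 470 CPM in IL10/2-Trikine, with overlapping groups and adjusted p from 0.397 to 0.825 in edgeR. The other 3 members were near their limit of detection and did not pass the filter. No Dusp4 UMI was found in the 99 PBS NK cells, which allows a share of cells with a UMI of up to 3.03% (3 counts of the 99 cells), and 8 UMIs were found in the mono-IL10 mice and 1 in IL10/2-Trikine. Spry1 was seen as 3 UMIs of mono-IL10 mouse 2 only. Dusp6 stood at 0 to 38.9 CPM. Of the 59 other pathway genes 23 were tested in NK cells and 0 passed in each of the 3 comparisons, in edgeR or in DESeq2, with 4 or 5 at an unadjusted p under 0.05 in edgeR. Those were 21.7% for IL10/2-Trikine against PBS (17.9% of all genes tested), 17.4% against mono-IL10 (16.1%) and 21.7% for mono-IL10 against PBS (11.6%). Dusp2, which encodes a nuclear ERK phosphatase of activated lymphocytes, was at -0.53 (SE 0.19, adjusted p = 0.113) for IL10/2-Trikine against PBS and at -0.48 (SE 0.17, adjusted p = 0.143) against mono-IL10.

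Beyond lymphocytes the members were found in most cell classes of the tumor. Mean levels over mice with at least 10 cells were compared only for the same gene. Spry1 was highest in endothelial cells at 188 ± 31.3 CPM (SD, n = 15), above fibroblasts at 37.7 ± 16.6 CPM (SD, n = 15). Dusp6 was also highest in endothelial cells at 209 ± 47.2 CPM (SD, n = 15), and was at 125 ± 12.02 CPM (SD, n = 15) in tumor epithelial cells, 103 ± 28.5 CPM (SD, n = 11) in neutrophils, 82.4 ± 14.1 CPM (SD, n = 15) in macrophages and 70.3 ± 21.0 CPM (SD, n = 15) in fibroblasts. Mice of endothelial and tumor epithelial cells did not overlap, and the neighbours below them did. Spry2 stood at 31.2 ± 8.48 CPM (SD, n = 15) in fibroblasts and at 30.9 ± 9.40 CPM (SD, n = 15) in endothelial cells, which do not differ beyond their spread. Dusp4 had 41.6 ± 25.03 CPM (SD, n = 10) in conventional dendritic cells. Classes other than the annotated lymphocytes were named here from marker genes.

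Tumor epithelial cells gave the deepest sums, with 617 to 2827 cells and 10905244 to 61557053 UMIs per mouse. The IL10/2-Trikine library stood apart in these cells, with 10212 to 12077 UMIs per cell as means of the mice, against 27009 to 32615 in PBS and 36933 to 44818 in mono-IL10. Since each treatment was 1 library, this depth and the treatment cannot be told apart in the values that follow. Spry2 was higher with IL10/2-Trikine and Dusp4 and Dusp5 were lower, while Spry1 and Dusp6 did not pass the test for that treatment. Of 15122 genes tested, 21.3% passed for IL10/2-Trikine against PBS, 33.5% against mono-IL10 and 6.69% for mono-IL10 against PBS. For the first pair of comparisons 3 of the 5 members passed and for the last 1 did, counts that, at these backgrounds, are not read as particular to the members.

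Spry2 in tumor epithelial cells stood at 27.1, 26.8, 25.1, 29.4 and 28.3 CPM in PBS, at 27.0, 25.7, 24.2, 29.5 and 23.6 CPM in mono-IL10, and at 32.7, 39.99, 37.4, 37.2 and 35.8 CPM in IL10/2-Trikine. No other mouse reached the lowest of the IL10/2-Trikine mice. The log2 difference was 0.47 (SE 0.06, adjusted p = 0.000108, edgeR) from PBS, a fold of 1.38 (1.26 to 1.51), and 0.43 (SE 0.06, adjusted p = 0.000112) from mono-IL10. Between mono-IL10 and PBS the fit, which scales the sums, gave 0.03 (adjusted p = 0.831). The mean CPM ran the other way, 26.0 in mono-IL10 and 27.3 in PBS.

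Dusp4 in the same cells stood at 30.5, 34.6, 34.1, 35.5 and 42.2 CPM in PBS, at 36.7, 36.2, 34.5, 33.3 and 37.2 CPM in mono-IL10, and at 21.5, 23.0, 21.8, 21.2 and 24.5 CPM in IL10/2-Trikine. All 5 IL10/2-Trikine mice lay below every mouse of the other groups, by a log2 difference of -0.62 (SE 0.07, adjusted p = 2.18e-05, edgeR) from PBS and -0.73 (SE 0.07, adjusted p = 3.97e-06) from mono-IL10. Dusp5 stood at 321, 314, 261, 292 and 313 CPM in PBS, at 311, 292, 307, 298 and 284 CPM in mono-IL10, and at 232, 271, 203, 199.8 and 245 CPM in IL10/2-Trikine. It fell by 0.35 on the log2 scale (SE 0.08, adjusted p = 0.00667) against PBS, where 4 of 5 mice lay below all of PBS, and by 0.44 (SE 0.08, adjusted p = 0.000724) against mono-IL10, where 5 of 5 did.

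Spry1 instead was lower with mono-IL10, and Dusp6 did not pass the test. Spry1 stood at 25.8, 22.1, 22.9, 26.6 and 25.3 CPM in PBS, at 17.8, 18.4, 20.7, 20.2 and 18.5 CPM in mono-IL10, and at 26.3, 21.4, 21.2, 25.3 and 20.5 CPM in IL10/2-Trikine. The 5 mono-IL10 mice lay below all PBS mice, with a log2 difference of -0.25 (SE 0.07, adjusted p = 0.0388, edgeR), which was lost in 9 of 21 alternatives (adjusted p 0.0155 to 0.104), among them the fits without PBS mouse 1, 4 or 5 or without mono-IL10 mouse 1, 2 or 5. Dusp6 stood at 146, 132, 124, 134 and 139 CPM in PBS, at 111, 106, 108, 128 and 111 CPM in mono-IL10, and at 132, 134, 126, 125 and 122 CPM in IL10/2-Trikine. Its log2 difference of -0.16 (SE 0.05) between mono-IL10 and PBS had an adjusted p of 0.0725. Without mono-IL10 mouse 4, the only mouse of that group within the range of PBS, it was -0.21 (adjusted p = 0.0169). For IL10/2-Trikine against PBS Dusp6 was at -0.05 (adjusted p = 0.550) and Spry1 at -0.07 (adjusted p = 0.542).

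**Figure D4:**
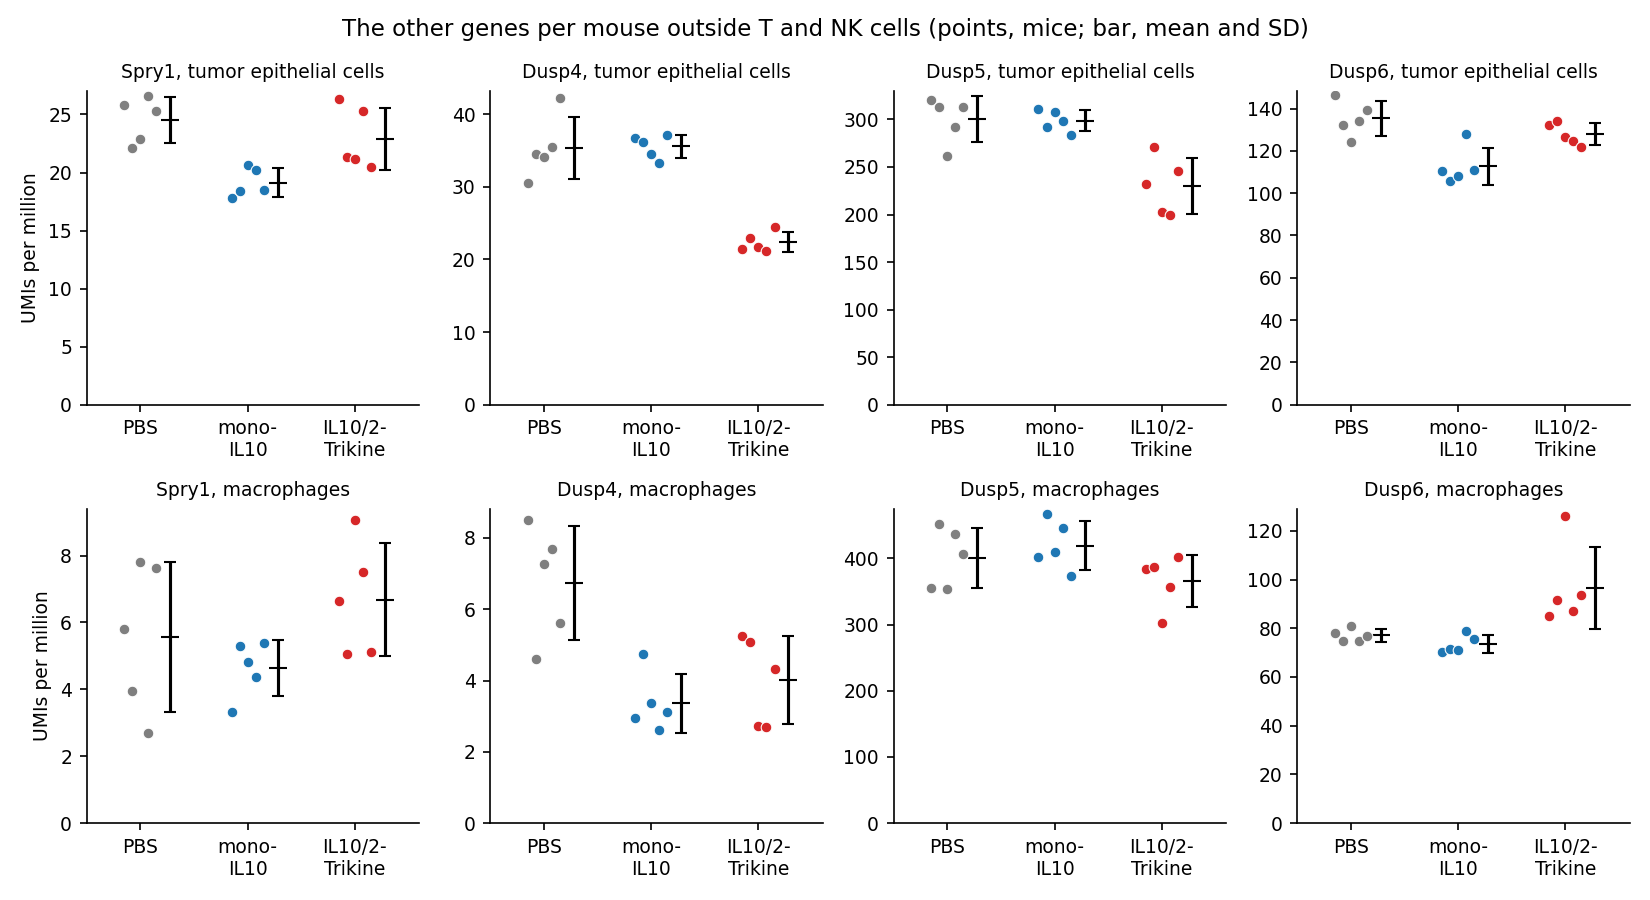
Spry1, Dusp4, Dusp5 and Dusp6 in CPM (vertical axes, from 0) for each mouse by treatment in tumor epithelial cells (upper row) and macrophages (lower row), with the mean and SD as a bar. Dusp4 of tumor epithelial cells lay at 21.2 to 24.5 in IL10/2-Trikine, below all other mice, and Dusp6 of macrophages at 85.2 to 126, above all other mice.

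The tumor epithelial class was made of 12 clusters, 11 of which had at least 3 mice with 20 or more cells in every group. Taken cluster by cluster, as the plot of levels within clusters shows, mean Spry2 was higher with IL10/2-Trikine than with PBS in 11 of 11 clusters and higher than with mono-IL10 in 11 of 11. Dusp4 was lower in 11 of 11 in both comparisons, and Dusp5 was lower in 11 of 11 against PBS and 10 of 11 against mono-IL10. With equal weight per cluster, Spry2 was 37.1 CPM in IL10/2-Trikine, 26.6 CPM in PBS and 25.3 CPM in mono-IL10, and Dusp4 was 23.0, 34.9 and 35.7 CPM. Spry1 was lower with mono-IL10 than with PBS in 11 of 11 clusters and Dusp6 in 10 of 11. The clusters share mice and are not replicates. Beside these values, the 6 epithelial markers summed to 3831 to 4137 CPM in IL10/2-Trikine against 4340 to 5757 CPM in PBS and 4828 to 5495 CPM in mono-IL10, and the macrophage markers to 78.1 to 425, 107 to 202 and 37.2 to 71.8 CPM. In the same order the NK markers summed to 80.3 to 361, 86.0 to 136 and 47.7 to 93.8 CPM. The part of these markers in the result was not tested.

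**Figure D5:**
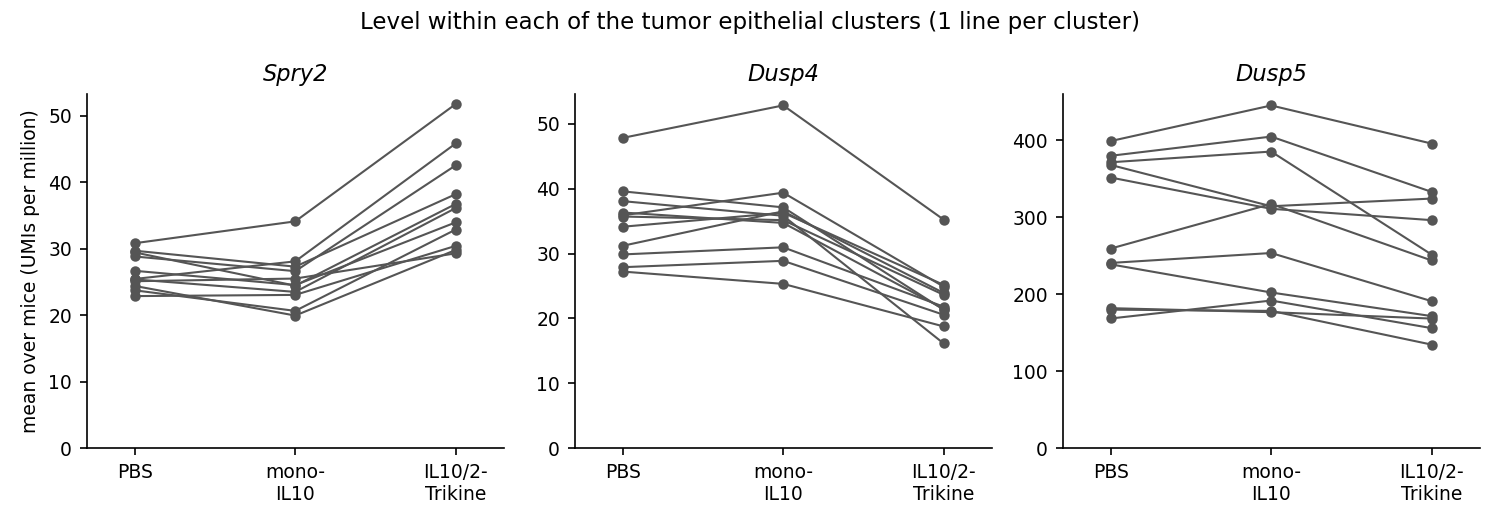
Mean over mice of Spry2, Dusp4 and Dusp5 in CPM (vertical axes, from 0) by treatment within each of the 11 tumor epithelial clusters, 1 line per cluster. Spry2 was higher and Dusp4 lower with IL10/2-Trikine than with PBS or mono-IL10 in 11 of 11 clusters.

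Among the 59 other genes of the pathway, 58 were tested in tumor epithelial cells. For IL10/2-Trikine against PBS 5 were higher and 12 lower (29.3%, against 21.3% of all genes), and the medians of the 6 groups of genes lay between -0.13 and 0.06 on the log2 scale, with 0.0040 over all genes. The feedback inhibitor Spry4 was higher by 0.29 (SE 0.07, adjusted p = 0.00761, edgeR) and the phosphatase Dusp1, which acts mainly on p38 and JNK, by 0.29 (SE 0.08, adjusted p = 0.0113). Dusp16 was lower by a log2 difference of -0.17 (adjusted p = 0.0290). In the chain from receptor to ERK 0 of 18 genes were higher and 5 were lower, led by the scaffold Ksr1 at -0.37 and the phosphatase Ptpn11 (SHP2) at -0.30. Of the transcription factors that ERK induces, 2 of 18 were higher (Egr3 at 0.49 and Nr4a1 at 0.40) and 3 lower, among them Fosl1 at -0.46 and Ier3 at -0.26.

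Against mono-IL10 18 of the 58 were higher and 13 lower (53.4%, against 33.5% of all genes). Spry4 was at 0.36, Spred1, a membrane inhibitor of RAS signalling related to the Sprouty proteins, at 0.25, Dusp1 at 0.53 and the cytoplasmic ERK phosphatase Dusp7 at -0.54, all past the threshold in edgeR. Of the 18 transcription factors 6 were higher, among them Nr4a3 at 1.02 (adjusted p = 0.00647), Egr2 at 0.59 (adjusted p = 0.00531) and Nr4a1 at 0.56 (adjusted p = 0.00111), and 3 were lower, among them Fosl1 at -0.88. Phlda1 was at -0.36. For mono-IL10 against PBS 3 were higher and 6 lower (15.5%, against 6.69%), with Dusp7 at 0.39 and Fosl1 at 0.42 in the first set and Egr1 at -0.35 and Ier2 at -0.39 in the second. Il2ra, Cd69, Dusp2 and Rasal3, which are genes of leukocytes, also passed against mono-IL10 (log2 differences of 1.95, 1.01, 1.09 and 1.04). The NK markers in the same sums stood at 80.3 to 361 CPM in IL10/2-Trikine against 47.7 to 93.8 CPM in mono-IL10, and their part was not tested.

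In macrophages, the class of macrophages or monocytes with 406 to 2110 cells per mouse, Dusp6 was the member that moved with IL10/2-Trikine. The mice of that library held 2714 to 3432 UMIs per macrophage, against 5204 to 6941 in PBS and 5251 to 8107 in mono-IL10, which again cannot be told apart from the treatment. It stood at 77.9, 74.9, 81.0, 74.6 and 76.99 CPM in PBS, at 70.2, 71.5, 71.1, 78.8 and 75.6 CPM in mono-IL10, and at 85.2, 91.5, 126, 86.9 and 93.6 CPM in IL10/2-Trikine. No other mouse reached the lowest of the IL10/2-Trikine mice. Of 12265 genes tested, 16.4% passed for IL10/2-Trikine against PBS, 12.4% against mono-IL10 and 26.7% for mono-IL10 against PBS, and of the 5 members 1, 1 and 2 did, which is near these backgrounds. The log2 difference of Dusp6 was 0.28 (SE 0.08, adjusted p = 0.0152, edgeR) from PBS, past the threshold in all 21 alternatives (adjusted p up to 0.0472), and 0.26 (SE 0.08, adjusted p = 0.0317) from mono-IL10, which was lost in 6 of 21 (adjusted p up to 0.0746). Those 6 included the fits without mono-IL10 mouse 1 or 2 and without IL10/2-Trikine mouse 2 or 5. The groups filled the macrophage clusters unequally. The cluster led by Cx3cr1, Fcrls, Hpgds and Ccl4 held 1482 cells of PBS, 241 of mono-IL10 and 104 of IL10/2-Trikine, and the cluster led by Pf4, Ccl8, Fcrls and Fabp5 held 160, 1416 and 263. Within clusters Dusp6 was higher with IL10/2-Trikine in 8 of 11 against PBS and in 10 of 11 against mono-IL10. With equal weight per cluster it was 89.8 CPM in IL10/2-Trikine against 80.8 CPM in PBS, a log2 difference of 0.15, and against 76.4 CPM in mono-IL10, a log2 difference of 0.23.

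Spry2 and Dusp4 of macrophages were scarce and differed between mono-IL10 and PBS. Spry2 stood at 7.51, 5.09, 10.1, 5.54 and 8.57 CPM in PBS, at 10.0, 7.27, 12.2, 12.4 and 16.9 CPM in mono-IL10, and at 9.67, 8.62, 14.5, 8.05 and 13.0 CPM in IL10/2-Trikine, with overlap between all groups. Its log2 difference between mono-IL10 and PBS was 0.77 (SE 0.20, adjusted p = 0.00705, edgeR), and between IL10/2-Trikine and PBS 0.49 (SE 0.24, adjusted p = 0.164). Dusp4 stood at 8.51, 4.59, 7.26, 7.68 and 5.62 CPM in PBS, at 2.94, 4.75, 3.36, 2.62 and 3.13 CPM in mono-IL10, and at 5.25, 5.07, 2.72, 2.68 and 4.33 CPM in IL10/2-Trikine. It was lower with mono-IL10, where 4 of 5 mice lay below all PBS mice, by a log2 difference of -0.90 (SE 0.19, adjusted p = 0.00188), and the difference of -0.58 (SE 0.22) for IL10/2-Trikine had an adjusted p of 0.0810. Over the 21 alternatives the difference for IL10/2-Trikine ran from -0.82 to -0.061 (adjusted p 0.0205 to 0.956, edgeR or DESeq2). When each mouse was thinned to the lowest total, neither mono-IL10 call was kept (Spry2 0.50 with adjusted p = 0.346, Dusp4 -0.40 with adjusted p = 0.637). With equal weight per cluster the log2 difference of Spry2 was 0.46 for mono-IL10 and 0.09 for IL10/2-Trikine against PBS, with a higher mean in 9 of 12 and 6 of 11 clusters. For Dusp4 it was -0.70 and -1.09, with a lower mean in 10 of 12 and 10 of 11 clusters. Epithelial markers summed to 40.3 to 121 CPM in PBS macrophages, 31.9 to 69.2 CPM in mono-IL10 and 53.5 to 120 CPM in IL10/2-Trikine, and NK markers, of which Tyrobp and Fcer1g are also macrophage genes, to 4387 to 5732, 4775 to 6491 and 4716 to 6602 CPM. Their part was not tested.

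Dusp5 of macrophages stood at 354 to 452 CPM in PBS, 374 to 467 CPM in mono-IL10 and 303 to 403 CPM in IL10/2-Trikine. Its log2 difference between IL10/2-Trikine and mono-IL10 was -0.29 (SE 0.10, adjusted p = 0.0565, edgeR; 0.0262 to 0.307 over the 21 alternatives, 6 of which passed, among them those without PBS mouse 1 or 2, mono-IL10 mouse 5 or IL10/2-Trikine mouse 5). With equal weight per cluster it was -0.07. Spry1 stood at 2.70 to 9.07 CPM over all mice and passed in none of the 3 comparisons. Of the other pathway genes 56 were tested in macrophages, and 4 were higher and 5 lower for IL10/2-Trikine against PBS (16.1%, against 16.4% of all genes). The higher genes included Etv5, an ETS factor induced by ERK, at 0.51 (SE 0.09, adjusted p = 0.000552), Myc at 0.49 (SE 0.11, adjusted p = 0.00477) and the IL-2 receptor alpha chain gene Il2ra at 1.53 (SE 0.32, adjusted p = 0.00229). Il2ra is also a gene of lymphocytes, and the 7 T cell markers in the same macrophage sums came to 51.2 to 89.6 CPM in IL10/2-Trikine, 29.7 to 42.7 CPM in PBS and 17.7 to 39.7 CPM in mono-IL10, with no overlap between IL10/2-Trikine and the other groups. Their part in the Il2ra values of both IL10/2-Trikine comparisons was not tested. The lower genes included Cd44 at -0.38, Cd69 at -0.66 and Jun at -0.33.

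For IL10/2-Trikine against mono-IL10 7 of the 56 were higher and 10 lower (30.4%, against 12.4%), led by Il2ra at 1.90 and Egr3 at 1.04 on the one side and Elk3 at -0.52 and Ier3 at -0.51 on the other. For mono-IL10 against PBS 8 were higher and 7 lower (26.8%, against 26.7%). Among the inhibitors Spred2 at 0.42 (adjusted p = 0.00366) and Spred3 at 0.54 (adjusted p = 0.0389) were higher together with Dusp1 at 0.25 (adjusted p = 0.0479), and of the transcription factors Elk3 at 0.65 and Ier2 at 0.48 were higher and Egr3 at -0.83 was lower. Ccnd1, the cyclin D1 gene, was at -0.97 and Cd69 at -0.78.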

How the data were processed

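Cells isolated as CD45+ from tumors of 15 mice were sequenced as 3 libraries, 1 per treatment, with a hashtag per mouse. The authors made the deposited counts, which are UMI counts per gene and barcode, with cellranger-9.0.1 on GRCm39, kept cells with at least 1000 genes and at most 10% mitochondrial UMIs, and named T and NK clusters by hand in Seurat 5.1.0; a further 7858 cells in their table belong to a treatment without a sample among those analysed and were not used here. Their annotation and its mouse assignments were used for T cells (all 10 clusters other than NK and Cycling_NK) and NK cells. Hashtags of the other cells were called with Seurat 5.3.0 (HTODemux, quantile 0.99); among annotated cells 93.2% to 98.8% per library received the same call and 0 another mouse. The other cells were clustered (2000 variable genes, 40 components, 60 k-means clusters, scikit-learn 1.9.0) and named from marker lists, a cluster staying unnamed where the next lineage exceeded 0.2 of the leading score, a limit set after clusters had been inspected. No doublet caller was run beyond the removal of barcodes with more than 1 hashtag.

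Deposited counts were summed per mouse and class for mice with at least 10 cells and tested with edgeR 4.0.16 (quasi-likelihood test, TMM, filterByExpr, 1 fit over the 3 groups, Benjamini-Hochberg adjustment over all genes tested, threshold 0.05) in R 4.3.3. Standard errors are the log2 difference divided by the square root of F, and 95% intervals of a fold use 1.96 standard errors. Depth was 46789 to 661363 UMIs per mouse in T cells and 33913 to 333657 in NK cells. The edgeR fit was checked on simulated data with known changes. DESeq2 1.42.0, other scalings, no filter, thinning, other cell minimums, other clusterings and leaving out each mouse were alternatives.

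The 5 members and all gene lists were chosen with earlier results of these data known. Pathway genes were named where they belonged to the Sprouty, Spred or DUSP groups or were among the largest changes past the threshold in their group, and the text prints a part of these. Genes named for likeness are the 5 with the highest correlation with each member, of which 1 is not reported here. Promoter sequences come from RefSeq on GRCm38.p6, not the build of the counts. The labels carry no replicate numbers.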

Additional observations from a re-analysis of the deposited data

Results flagged for a closer look

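In 57 groups of 4 or 5 mice, 1 value of a member stood far from the others in 6, where chance gives about 1 in 20. Dusp4 in T cells of PBS mouse 2 was 12.4 CPM on 2 UMIs, against 37.0 to 43.8 CPM in the others. Dusp4 in NK cells of IL10/2-Trikine mouse 3 was 14.999 CPM on 1 UMI, with 0 in the others. Dusp6 in NK cells of PBS mouse 4 was 38.9 CPM on 5 UMIs, with 0 to 8.69 CPM in the others. Spry1 in NK cells of mono-IL10 mouse 2 was 14.3 CPM on 3 UMIs, with 0 in the others. Those 4 values rest on 5 UMIs or fewer.

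The remaining pair rests on more UMIs. Dusp6 in macrophages of IL10/2-Trikine mouse 3, the mouse with the fewest macrophages of its group (406 cells), was 126 CPM on 139 UMIs, against 85.2 to 93.6 CPM in the others. Dusp6 in tumor epithelial cells of mono-IL10 mouse 4 was 128 CPM on 4790 UMIs, against 106 to 111 CPM in the others.

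Annotated T cells that carried no mouse entered no sum per mouse. In them Spry2 was 106 CPM in IL10/2-Trikine (38 UMIs in 118 cells, exact 95% Poisson interval 74.9 to 145), above the 36.1 CPM of PBS (10 UMIs in 93 cells, 17.3 to 66.3) and the 21.8 CPM of mono-IL10 (11 UMIs in 134 cells, 10.9 to 39.0). These cells belong to the annotated T cells whose levels by treatment chose Spry2, so they are not independent of that choice. They come from the same 3 libraries and are no further replicate.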

How the results depend on the processing

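The number of genes past the threshold moved by over 1.5 times in several settings. Thinning of each mouse to the lowest total gave 17 genes for mono-IL10 against PBS in T cells (55 as reported), 44 in NK cells of IL10/2-Trikine set against PBS (104) and 18 set against mono-IL10 (56), 983, 513 and 1199 for the 3 macrophage comparisons (2016, 1518 and 3272) and 658 in tumor epithelial cells of mono-IL10 and PBS (1012). No filter gave 135 in those T cells, and 46 in NK cells when mono-IL10 was compared with PBS (7). With 20 cells per mouse the NK comparisons of IL10/2-Trikine and of mono-IL10 with PBS gave 41 and 2. The NK cluster alone, chosen after seeing the data, gave 62 and 20 for IL10/2-Trikine.

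Leaving out 1 mouse gave 20 to 70 genes in T cells, 61 to 101, 9 to 72 and 3 to 13 in NK cells, 1628 to 2079, 937 to 1572 and 2592 to 3378 in macrophages, and 2572 to 3297, 4337 to 5032 and 494 to 1385 in tumor epithelial cells. Changes over 1.5 times came in T cells without PBS mouse 3 (26) or mono-IL10 mouse 1 or 5 (20 and 31). In NK cells they came for IL10/2-Trikine and PBS without PBS mouse 4 (61), for IL10/2-Trikine and mono-IL10 without mono-IL10 mouse 1, 2 or 4 (9, 31 and 28) or IL10/2-Trikine mouse 2, 4 or 5 (24, 25 and 36), and for mono-IL10 and PBS without mono-IL10 mouse 1 or 4 (3 and 13). In macrophages 1 came, without IL10/2-Trikine mouse 1 (937, mono-IL10 comparison). In tumor epithelial cells they came for mono-IL10 and PBS without PBS mouse 1, 3, 4 or 5 (547, 644, 494 and 641) or mono-IL10 mouse 2 or 3 (569 and 542).

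Every setting for Spry2 in T cells draws on the annotated T cells whose values chose the gene, so its sign there is no test. The log2 difference of Spry2 in T cells stayed positive in every setting. From PBS it was 1.21 when thinned, 1.21 without the NK-like Cycling_T cells, 0.93 without the cycling clusters and 0.95 without cycling and naive clusters (chosen after seeing the data), and from mono-IL10 it was 1.38, 0.98 and 1.39 without cycling clusters, without cycling and naive clusters and with equal weight per cluster. Leaving out 1 mouse gave 1.66 to 1.99 and 1.958 to 2.50. The share of IL10/2-Trikine T cells with a Spry2 UMI was 24.3% with all UMIs. Of the members' other values 758 kept their side of the threshold, 17 lost a call, 15 gained one and 0 reversed a called direction. Those gained were Dusp4 in macrophages against PBS without PBS mouse 2 (adjusted p = 0.0351) and with 40 clusters (0.0205), Dusp5 in macrophages against mono-IL10 in 6 settings, Spry1 in tumor epithelial cells against mono-IL10 without mono-IL10 mouse 3 or IL10/2-Trikine mouse 3 or 5, and Dusp6 in tumor epithelial cells against mono-IL10 without mono-IL10 mouse 4 (0.0183), and between mono-IL10 and PBS in DESeq2 (0.0492) and without PBS mouse 3 (0.0426) or mono-IL10 mouse 4 (0.0169). The cause was not tested. Depth limits Spry1, Dusp4 and Dusp6 in lymphocytes, where a mouse held 0 to 38 UMIs of any of them. No paired analysis was possible because the mice of different groups share no animal and the labels give them no replicate numbers.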
